A study of Mus musculus with 12 samples.

Results

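Histone genes and histone variants were studied in differentiating mouse embryonic stem (ES) cells. They were taken from the deposited gene count table by symbol: every gene whose symbol begins with H1f, H2a, H2b, H3c, H3f, H4c, H4f, Macroh2a or one of the Hist1h to Hist4h prefixes, and Cenpa, with at least 10 counts summed over the 12 libraries. Of 55487 genes in the table, 116 had such a symbol and 92 reached the count minimum. These 92 comprised 63 replication-dependent genes, 11 replacement variants, 7 germ cell variants and 11 loci annotated as pseudogenes or an antisense transcript. In the annotation 58 of the 92 lie on chromosome 13, which holds the main histone cluster, 10 on chromosome 3 and 6 on chromosome 11.

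Histones pack DNA into nucleosomes: H2A, H2B, H3 and H4 form the core and the linker histone H1 binds where DNA enters and leaves it. Replication-dependent histone genes lie in clusters, are switched on in S phase, and give mRNAs that end in a conserved stem-loop in place of a poly(A) tail, which the stem-loop binding protein and the U7 small nuclear RNA process. Replacement variants (H2A.Z, H2A.X, H2A.J, macroH2A, H3.3, CENP-A, H1.0 and H1.10) are mostly made as polyadenylated mRNA outside S phase as well and are placed by their own chaperones; macroH2A is known for its enrichment on the inactive X chromosome of female cells.

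The study compared female mouse ES cells of a C57BL6/CAST hybrid strain labelled SIRT7-KO with WT cells of the same strain; SIRT7 is a nuclear deacetylase. Each genotype had 3 libraries 7 days after withdrawal of leukaemia inhibitory factor (LIF, which keeps ES cells undifferentiated) and 3 libraries at day 0 with LIF, so there were 4 groups of 3 poly(A)-selected RNA libraries. The labels' separate treatment field (LIF or None) runs with genotype and replicate number and not with day, so the day was taken from the titles and time points. The labels do not say that replicates came from separate cultures or how many clones were used, so p-values measure the spread between these libraries only.

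Library totals ranged from 25190483 to 69079368 counts. The targeted gene went against its label: Sirt7 had 25.1, 20.1 and 23.8 CPM (counts scaled to library size) at day 7 in the libraries labelled knockout (KO), against 10.2, 10.6 and 15.3 CPM in WT libraries. At day 0 it had 19.2, 23.8 and 16.9 CPM in libraries labelled KO, against 12.7, 8.03 and 10.3 CPM in WT libraries. Sirt7 counts were thus higher under the KO label on both days without overlap, although neither difference passed the test over all genes (edgeR quasi-likelihood, adjusted p = 0.299 at day 7 and 0.182 at day 0), and the counts do not show where an edit lies. Every direction between genotypes below rests on the labels alone. The ES cell label held at day 0: the 6 ES markers summed to 251 to 289.9 CPM at day 7 against 4885 to 5195 CPM at day 0 over both genotypes, and all 6 fell in both. Between genotypes 1 of these 6 was called, Esrrb, higher in libraries labelled KO at day 0 (log2 difference 2.40, adjusted p = 0.00147). All 3 tested neural markers fell over 7 days in both genotypes. At day 7 all 6 mesoderm markers were called higher. The 8 markers listed for feeder fibroblasts summed to 2735 to 3429.6 CPM against 198 to 412 CPM at day 0. Of these 8, 7 were called higher and 1 was called lower in both genotypes. In bulk RNA, a change in the share of a cell type and a change in RNA per cell cannot be told apart, and the part of this shift in cell make-up in the histone results was not tested.

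The letters that set the replication-dependent class apart are the stem-loop. The motif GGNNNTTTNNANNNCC, read on the transcript strand with 6 paired stem bases around a 4-base loop, was found in annotated transcripts (GENCODE M21, GRCm38) of 46 of the 92 genes, 43 of them replication-dependent, and in 78 of the other 21947 protein-coding genes. Several replication-dependent genes without the motif have short annotated transcripts, such as H2ac10 (399 bases), H2ac13 (393), H2bc13 (381), H3c10 (411) and H4c12 (312). A stem-loop past an annotated end could not be found, so a gene without the motif is not shown to lack one. Examples of each core and linker family, the replacement variant H2ax and the X-linked germ cell variant H2bfm are shown with 5 transcript bases on either side. The stem-loop is in capitals.
H1f2: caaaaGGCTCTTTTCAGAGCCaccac
H2ac11: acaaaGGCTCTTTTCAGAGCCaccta
H2bc8: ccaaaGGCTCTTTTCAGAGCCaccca
H3c1: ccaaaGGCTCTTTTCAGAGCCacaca
H4c8: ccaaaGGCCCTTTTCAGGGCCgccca
H2ax: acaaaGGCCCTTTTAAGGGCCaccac
H2bfm: ccaaaGGCTCTTTTCAGAGCCaccac
The letters of H1f2, H2ac11, H2bc8, H3c1 and H2bfm were the commonest form, held by 27 genes, and those of H4c8 were shared by 7 genes, all of the H4 family. The H2ax form was found in no other histone gene. An annotated transcript ran on for at least 100 bases past the stem-loop in 24 of the 46 genes and ended within 60 bases of it in 21, and 15 genes had the polyadenylation signal letters AATAAA or ATTAAA in the last 50 bases of an annotated transcript. Because the libraries were selected for poly(A), counts of these genes are not a measure of their whole mRNA.

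Replacement variants held most of the histone reads in these libraries. The 92 genes held 1555326 counts over all libraries, of which the 11 replacement variants took 72.0% and the 63 replication-dependent genes 26.1%. Of the replication-dependent counts, 93.7% fell on H2A genes, 1.93% on H1, 1.89% on H2B, 1.35% on H3 and 1.18% on H4 genes. In all, 51 of the 63 averaged under 5 CPM per library and 8 averaged over 30 CPM. Per kilobase of annotated exon, the highest of the H2A genes were Hist1h2ap at 490.4 CPM per kb, Hist1h2ao at 447, H2ac11 at 203 and H2ac12 at 192, as means of all 12 libraries. In the other families the leading genes were far lower on the same scale. They were H1f2 at 9.32 (followed by H1f1, H1f5 and H1f4, the last at 0.414), H2bc4 at 5.73 (then H2bc8, H2bc13 and H2bc12 at 2.14), H3c11 at 3.22 (then H3c10, H3c8 and H3c3 at 2.03) and H4c9 at 5.26 CPM per kb (then H4c1, H4c8 and H4c2 at 1.496). Many of these genes are near-identical copies: over 50-base windows of their transcripts, a median of 82.3% of windows of the H2A genes occurred letter for letter in another gene's transcripts, against 62.0% for H3, 49.7% for H2B, 39.5% for H4, 2.25% for H1 and 7.00% for replacement variants. How the authors' counting split such reads is not given in the sources used here, so the level of a single replication-dependent copy is uncertain.

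Among replacement variants, H2ax had the highest level at 579 CPM per kb over all libraries, followed by H2az1 (175), H1f10 (143), H3f3b (126) and H3f3a (122). Macroh2a2 (51.6), H2az2 (45.5), H1f0 (42.7) and H2aj (42.0) formed a lower range, above Macroh2a1 (16.3) and Cenpa (12.3 CPM per kb). The order shifted with day: in libraries labelled KO, Macroh2a2 averaged 67.4 CPM per kb at day 7 against 27.3 at day 0, and in WT 85.5 at day 7 against 26.1 at day 0, while H2aj ran the other way.

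The change over 7 days without LIF moved many histone genes. Of the 92 genes, 79 passed the filter on low counts and were tested among 19235 genes. In libraries labelled KO, 6 were called higher and 21 lower at day 7 than at day 0, beside 31.1% of all tested genes called higher and 32.3% called lower. In WT libraries 8 were called higher and 21 lower, beside 32.9% and 32.1% of all genes. In both genotypes the share of histone genes called was thus below that of all genes in each direction, by more for rises than for falls. Leaving out replicate 2 of WT at day 0 left 6 higher and 12 lower in WT. The median log2 change of the 79 genes was -0.386 in libraries labelled KO and -0.415 in WT, beside -0.02 and 0.01 for all genes. Of the 79, 9 passed the filter only through day 0 libraries and 2 only through day 7 libraries. This favours falls, so these medians are given as a description. The 5 genes H1f0, H3f3b, Macroh2a1, Macroh2a2 and the pseudogene H3f3a-ps2 were called higher in both genotypes, although the call of H3f3a-ps2 was lost in 5 of 18 alternative analyses in libraries labelled KO and in 15 of 18 in WT. Those called lower in both numbered 15: Cenpa, H1f1, H2ac10, H2aj, H2ax, H2az2, H2bc1, H2bc15, H2bc3, H2bc4, H2bc8, H2bfm, H3c1, H3c8 and H4c8. Of these, H2bc1, H2bc15, H2bc3 and H2bfm passed the filter only through day 0 libraries.

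**Figure D1:**
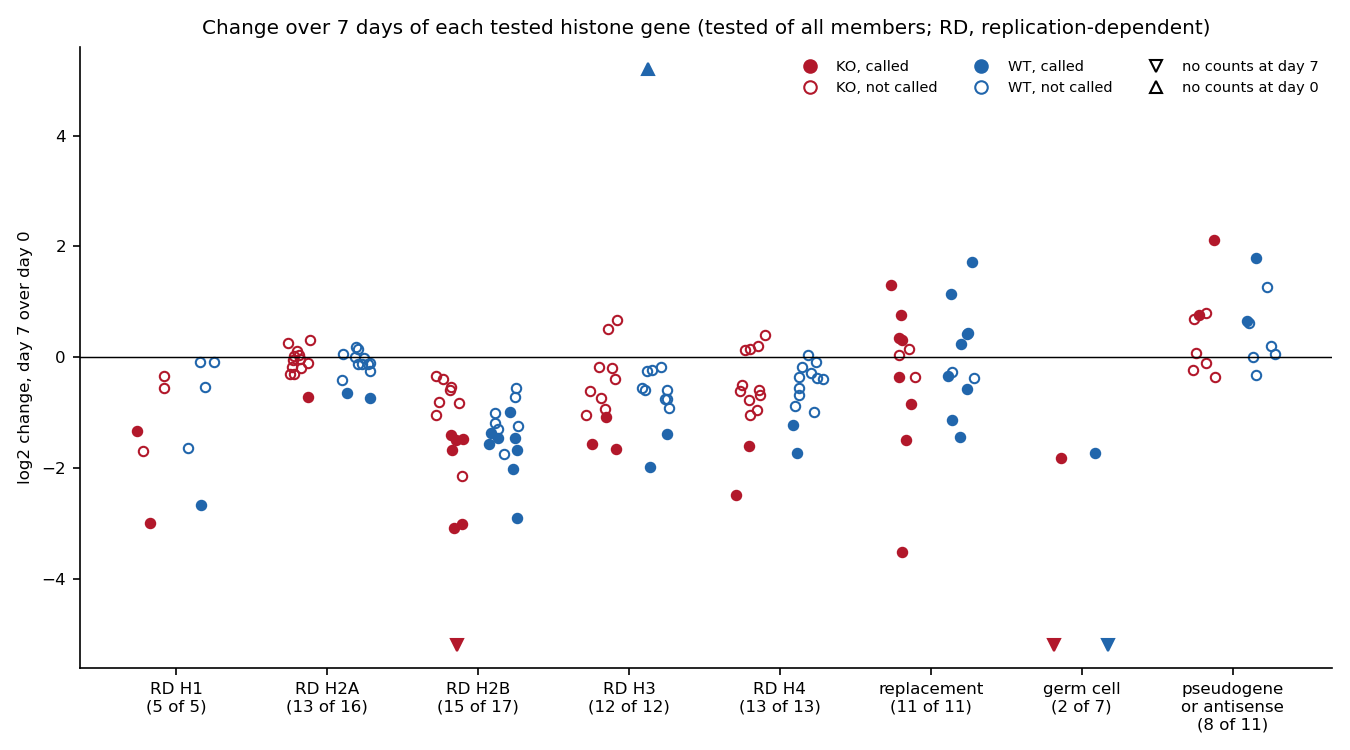
Log2 change over 7 days (y axis) of the 79 tested histone genes, grouped by class on the x axis, in libraries labelled KO (red, left) and in WT (blue, right). Each point is a gene and is filled where called, and triangles at the edges are genes with 0 counts in all libraries of 1 day. The replication-dependent (RD) H2B genes lie below 0 in both genotypes, where 4 of them passed the filter only through day 0 libraries, RD H2A genes lie near 0, and replacement variants lie on both sides.

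Among the 11 replacement variants, 4 were called higher and 4 lower in libraries labelled KO, and 5 higher and 4 lower in WT. With 11 genes these counts lie near the 31.1% and 32.3% of all genes called higher and lower in libraries labelled KO and the 32.9% and 32.1% in WT. The linker variant H1f0, which encodes H1.0 and is known to accumulate in differentiated and resting cells, had 114, 106 and 106 CPM at day 7 against 64.2, 68.8 and 59.96 CPM at day 0 in libraries labelled KO. It had 126, 125 and 115 CPM at day 7 against 56.8, 52.4 and 58.0 CPM at day 0 in WT libraries. All 6 day 7 values were above all 6 day 0 values, and the log2 change was 0.76 (SE 0.08, adjusted p = 6.82e-06) in libraries labelled KO and 1.13 (SE 0.08, adjusted p = 2.57e-07) in WT.

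Macroh2a2, which encodes macroH2A2, an H2A with a large macro domain at its tail, had 145, 147 and 148 CPM at day 7 against 61.2, 59.2 and 57.9 CPM at day 0 in libraries labelled KO. It had 191, 186 and 181 CPM at day 7 against 45.1, 62.8 and 62.3 CPM at day 0 in WT libraries. Every day 7 library was far above every day 0 library, with a log2 change of 1.303 (SE 0.11, adjusted p = 1.31e-06) in libraries labelled KO and 1.71 (SE 0.11, adjusted p = 1.41e-07) in WT. Its paralog Macroh2a1 had 114, 118 and 121 CPM at day 7 against 88.0, 94.8 and 94.3 CPM at day 0 in libraries labelled KO, and 132, 119.5 and 127 CPM at day 7 against 113, 102 and 106 CPM at day 0 in WT libraries. The groups did not overlap within either genotype, but the steps were small, at 0.35 (SE 0.07, adjusted p = 0.000939) in libraries labelled KO and 0.24 (SE 0.07, adjusted p = 0.0102) in WT.

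H3f3a and H3f3b encode the same protein, H3.3, which replaces H3 outside replication. H3f3b had 388, 406 and 419.9 CPM at day 7 against 323, 322 and 334 CPM at day 0 in libraries labelled KO, and 438, 451 and 421 CPM at day 7 against 323, 334 and 321 CPM at day 0 in WT libraries, and rose without overlap in both genotypes (log2 0.31, SE 0.05, adjusted p = 0.000372 in libraries labelled KO, and 0.42, SE 0.05, adjusted p = 3.42e-05 in WT). H3f3a had 389, 475 and 505 CPM at day 7 against 482, 408 and 438 CPM at day 0 in libraries labelled KO, where the groups overlapped (log2 0.04, SE 0.14, adjusted p = 0.799). In WT it had 414, 545 and 451 CPM at day 7 against 287, 374 and 378 CPM at day 0, without overlap, and it was called higher (log2 0.44, SE 0.14, adjusted p = 0.0156). The difference between the 2 genotypes' changes was not called (log2 -0.40, SE 0.20, adjusted p = 0.757). The locus H3f3aos, antisense to H3f3a, and the pseudogenes H3f3a-ps2 and Macroh2a3 were also called higher in 1 or both genotypes. Of these, H3f3aos passed the filter on low counts only through day 7 libraries, so its call is a description. As no source used here states a stranded count, reads of H3f3a and H3f3aos cannot be told apart where the loci overlap, at chr1:180813776-180813943. Reads of near-identical copies cannot be told apart either.

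**Figure D2:**
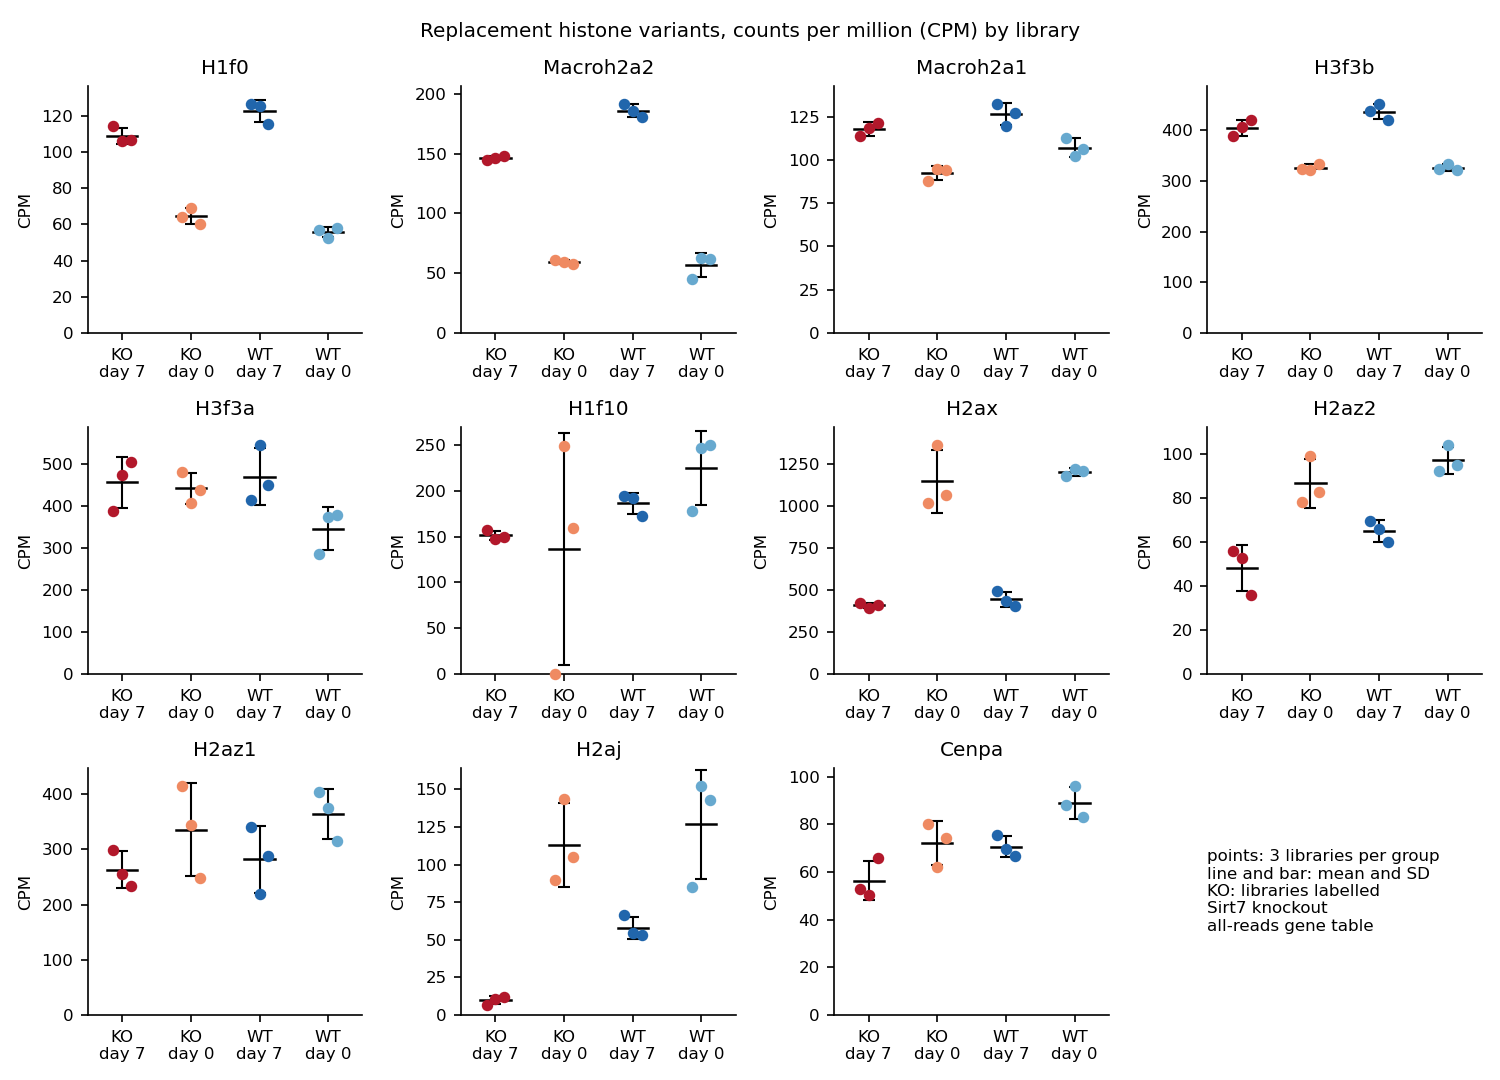
CPM (y axis) of the 11 replacement variants in the 4 groups of 3 libraries (x axis). Points are libraries, and the line and bar are the mean and SD. H1f0, Macroh2a1, Macroh2a2 and H3f3b stand higher at day 7 and H2ax, H2az2 and H2aj lower in both genotypes, and H2aj is lowest in the day 7 libraries labelled KO.

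H2ax encodes H2A.X, the H2A whose tail is phosphorylated beside DNA breaks, and its gene gives both stem-loop and polyadenylated mRNA. It had 422, 393 and 410.0 CPM at day 7 against 1017, 1363 and 1064 CPM at day 0 in libraries labelled KO. It had 492, 434 and 408 CPM at day 7 against 1179, 1225 and 1208 CPM at day 0 in WT libraries. The day 7 values lay between 393 and 492 CPM and the day 0 values between 1017 and 1363 CPM, a log2 change of -1.49 (SE 0.11, adjusted p = 3.29e-07) in libraries labelled KO and -1.44 (SE 0.11, adjusted p = 4.28e-07) in WT. Of both H2A.Z genes, H2az2 fell in each genotype, with 55.7, 52.7 and 36.0 CPM at day 7 against 78.0, 99.2 and 82.7 CPM at day 0 in libraries labelled KO (log2 -0.85, SE 0.15, adjusted p = 0.000544), and 69.5, 65.9 and 59.8 CPM at day 7 against 92.3, 104 and 94.9 CPM at day 0 in WT libraries (log2 -0.58, SE 0.15, adjusted p = 0.00624). H2az1 did not pass the test, with log2 changes of -0.35 (adjusted p = 0.145) in libraries labelled KO and -0.37 (adjusted p = 0.123) in WT, and its day 7 and day 0 libraries overlapped in both.

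Cenpa, the H3 variant that marks centromeres, had 53.1, 50.2 and 65.7 CPM at day 7 against 80.1, 62.0 and 74.3 CPM at day 0 in libraries labelled KO, which overlapped, and 75.7, 69.8 and 66.7 CPM at day 7 against 88.0, 96.0 and 83.03 CPM at day 0 in WT libraries, which did not. Its log2 change was -0.36 (SE 0.12, adjusted p = 0.0258) in libraries labelled KO and -0.33 (SE 0.12, adjusted p = 0.0342) in WT. Of 18 alternative analyses, 7 lost the call in libraries labelled KO and 5 lost it in WT. H1f10, the linker variant H1.10, was not called in either genotype (log2 0.15, SE 1.12, adjusted p = 0.916 in libraries labelled KO, and -0.27, SE 1.12, adjusted p = 0.847 in WT). On the allele-divided table described below the log2 change in libraries labelled KO was -0.29 (SE 0.18, adjusted p = 0.186), of the opposite sign. Its all-reads values were 157, 147 and 149.6 CPM at day 7 against 0, 249 and 159.8 CPM at day 0 in libraries labelled KO, so that 1 library, replicate 1 at day 0, was listed at 0. The WT libraries had 194, 192 and 173 CPM at day 7 against 178, 246 and 249.5 CPM at day 0.

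H2aj encodes H2A.J, a replacement H2A that differs from canonical H2A mainly at its end and is known to build up in senescent human fibroblasts. It lies at chr6:136808244-136810074 on the plus strand (GRCm38), next to the H4 gene H4f16 at chr6:136801553-136804415 on the minus strand. It had 6.93, 10.9 and 11.9 CPM at day 7 against 89.6, 144 and 105 CPM at day 0 in libraries labelled KO. It had 66.6, 54.2 and 53.3 CPM at day 7 against 85.3, 152 and 143 CPM at day 0 in WT libraries. Day 7 lay below day 0 in both genotypes without overlap, with a log2 change of -3.51 (SE 0.28, adjusted p = 8.74e-07) in libraries labelled KO and -1.13 (SE 0.26, adjusted p = 0.00243) in WT. H2aj is taken up again below, because the deposited tables differ on it.

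Most calls among replication-dependent genes were falls. Of 58 tested, 0 were called higher and 15 lower in libraries labelled KO, and 1 higher and 15 lower in WT. The 15 are 25.9% of those tested, below the 32.3% in libraries labelled KO and 32.1% in WT of all genes called lower. Their median log2 change was -0.601 in libraries labelled KO and -0.589 in WT. Of the 58, 7 passed the filter on low counts only through day 0 libraries and 1 only through day 7 libraries. This favours falls, so the counts and medians of this class are given as a description. By family, and with no test of the differences between families, 7 of the 15 tested H2B genes were called lower in libraries labelled KO and 8 in WT. Of these 15, 4 (H2bc3, H2bc7, H2bc14 and H2bc15) passed the filter on low counts only through day 0 libraries, which favours a negative sign, so the signs of this family are not read as a result. Of the 13 tested H2A genes 1 was called lower in libraries labelled KO and 2 in WT, of 12 H3 genes 3 in libraries labelled KO and 2 in WT, of 13 H4 genes 2 in each genotype, and of 5 H1 genes 2 in libraries labelled KO and 1 in WT.

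H2bc4, the most abundant of the H2B genes per kilobase, is annotated as a spliced gene at chr13:23684199-23692908 whose transcript holds no stem-loop. It had 1.66, 1.15 and 1.61 CPM at day 7 against 10.3, 13.6 and 13.9 CPM at day 0 in libraries labelled KO. It had 0.994, 1.63 and 1.78 CPM at day 7 against 7.47, 12.4 and 13.1 CPM at day 0 in WT libraries. Every day 7 library was below every day 0 library, and the log2 change was -3.09 (SE 0.30, adjusted p = 3.66e-06) in libraries labelled KO and -2.91 (SE 0.29, adjusted p = 5.34e-06) in WT. The allele-divided table described below differed 2-fold or more for H2bc4 in some library and gave log2 changes of -3.67 in libraries labelled KO and -3.34 in WT. H2bc8, whose stem-loop is printed above, had 0.960, 0.709 and 0.710 CPM at day 7 against 1.53, 2.16 and 2.63 CPM at day 0 in libraries labelled KO, and 0.925, 0.534 and 1.35 CPM at day 7 against 2.996, 2.52 and 2.08 CPM at day 0 in WT libraries. It also fell without overlap (log2 -1.40, SE 0.36, adjusted p = 0.0056 in libraries labelled KO, and -1.46, SE 0.36, adjusted p = 0.00413 in WT). H2bc3 changed by -1.48 (adjusted p = 0.033) in libraries labelled KO and -1.67 (adjusted p = 0.0169) in WT, calls lost in 8 of 18 alternative analyses in libraries labelled KO, the allele-divided table among them (adjusted p = 0.109), and in 2 of 18 in WT.

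In the other families, the linker gene H1f1 had 0.285, 0.473 and 0.0645 CPM at day 7 against 2.22, 2.04 and 2.29 CPM at day 0 in libraries labelled KO, and 0.416, 0.490 and 0.503 CPM at day 7 against 2.48, 2.33 and 4.20 CPM at day 0 in WT libraries. These values separated the days in both genotypes (log2 -2.98, SE 0.50, adjusted p = 0.000289 in libraries labelled KO, and -2.67, SE 0.47, adjusted p = 0.000426 in WT). H2ac10 was the H2A gene called lower in both, with log2 changes of -0.71 in libraries labelled KO and -0.73 in WT. The H3 genes H3c8 and H3c1 changed by -1.65 and -1.56 in libraries labelled KO and by -1.97 and -1.38 in WT, and the H4 gene H4c8 by -1.60 in libraries labelled KO and -1.22 in WT. The H3c1 calls were each lost in 4 of 18 alternative analyses, and on the allele-divided table their adjusted p was 0.131 in libraries labelled KO and 0.0608 in WT. The WT call of H4c8 was lost in 7 of 18, with an adjusted p of 0.0633 on the allele-divided table, and those of H3c8 held in all 18. The 1 rise called was that of H3c13 in WT, with 0.601, 0 and 0.697 CPM at day 7 against 0, 0 and 0 CPM at day 0. Against the floor of 3 counts over the 3 day 0 libraries this was at least 10.3-fold higher at day 7. In the allele-divided table described below H3c13 had 0.336, 0.625 and 0.0734 CPM at day 0 in WT and was not called. H3c13 passed the filter on low counts only through day 7 libraries, so its call is given as a description.

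Summed by family, the H2B genes were furthest below their day 0 level. The replication-dependent H2B genes together had 7.95 ± 1.38 CPM at day 7 against 27.3 ± 3.99 CPM at day 0 in libraries labelled KO, and 9.58 ± 0.795 against 30.1 ± 3.69 CPM in WT (SD, n = 3 each). The H2A genes had 829.5 ± 63.0 CPM at day 7 against 869 ± 386 CPM at day 0 in libraries labelled KO, and 868 ± 32.3 against 954 ± 262 CPM in WT, within the spread of the day 0 libraries. The H1 genes had 14.4 ± 0.766 against 21.1 ± 0.637 CPM in libraries labelled KO and 16.4 ± 1.53 against 20.9 ± 3.71 CPM in WT. No test was made of these sums.

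The H2A sum varied widely among day 0 libraries: replicates 1, 2 and 3 had 525, 1287 and 796 CPM in libraries labelled KO and 738, 1245 and 878 CPM in WT. Summed RNAs that carry no poly(A) tail (Rn7sk, Rmrp, Rpph1 and others) had 10.2, 16.05 and 13.9 CPM in the same libraries labelled KO and 10.5, 22.6 and 18.8 CPM in WT, so that replicate 2 was highest and replicate 1 lowest for both sums in both genotypes. At day 7 the H2A sum had 759, 849 and 880.3 CPM in libraries labelled KO and 904, 859 and 842 CPM in WT, and the tail-less RNAs had 9.36, 9.39 and 8.87 CPM in libraries labelled KO and 25.9, 10.2 and 8.28 CPM in WT. Hist1h2ap, the highest of the replication-dependent H2A genes, had the same order among day 0 replicates, with 196, 266 and 265 CPM at day 7 against 97.2, 396 and 249 CPM at day 0 in libraries labelled KO, and 216, 209 and 228 CPM at day 7 against 148, 370.0 and 195 CPM at day 0 in WT libraries. Of the 10 tail-less RNAs tested, 0 were called higher and 2 lower in each genotype, and Snora73b was called lower in both, with log2 changes of -2.07 in libraries labelled KO and -3.76 in WT. The part of carry-over of tail-less RNA in the H2A values was not tested.

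The 46 stem-loop genes summed to 1098 ± 48.6 CPM at day 7 against 1874 ± 503 CPM at day 0 in libraries labelled KO, and to 1154 ± 64.9 against 1976 ± 239.9 CPM in WT, log2 ratios of -0.77 and -0.78. This sum leaves out replication-dependent genes with no stem-loop in their annotated transcripts, such as H2ac10, H2ac12 and H2ac13. H2ax alone made up 35.7% to 70.8% of the sum. Without H2ax the sums were 626, 707 and 736 CPM at day 7 against 419.7, 1061 and 696 CPM at day 0 in libraries labelled KO, and 734, 699 and 694 against 600.3, 1019 and 697 CPM in WT, log2 ratios of -0.072 and -0.12. Most of the difference between the totals thus lay in H2ax. This sum without H2ax was chosen after the data were seen.

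Many H2A and H2B genes lie head to head and share the DNA between their start sites. There were 15 such pairs with at most 500 bases between the genes, pseudogenes included, and both partners were tested in 12. In these 12 pairs the log2 change of the H2B gene lay below that of its H2A neighbour in 12 of 12 in libraries labelled KO and 12 of 12 in WT. Of the 12 H2B partners, 4 passed the filter on low counts only through day 0 libraries, against 0 of the H2A partners, so these orders are a description. The H2B partner was called lower in 7 pairs in libraries labelled KO and in 6 in WT, beside the 32.3% and 32.1% of all genes called lower. The H2A partner was called lower in 0 pairs in libraries labelled KO and in 1 in WT, where the call of H2ac15 was lost in 14 of 18 alternative analyses. H2ac8 and H2bc8, 175 bases apart at chr13:23571221-23571395, had log2 changes of -0.30 and -1.40 in libraries labelled KO and of -0.42 and -1.46 in WT. H2ac6 and H2bc4, 250 bases apart at chr13:23683949-23684198, had log2 changes of 0.25 and -3.09 in libraries labelled KO and of -0.25 and -2.91 in WT. H2ac8 and H2ac6 were not called in either genotype. The difference within a pair was not tested.

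Summed over the 15 pairs, the H2B genes had 5.34, 4.59 and 7.19 CPM at day 7 against 20.8, 25.2 and 27.9 CPM at day 0 in libraries labelled KO, 0.232 of the day 0 level. In WT they had 8.19, 7.32 and 8.17 against 21.6, 28.9 and 29.7 CPM, 0.295 of the day 0 level. H2bc4 made up 51.1% of the day 0 sum in libraries labelled KO and 41.1% in WT, and without it, a sum chosen after the data were seen, the ratios were 0.351 in libraries labelled KO and 0.408 in WT. Their H2A partners stood at 0.986 and 0.943 of the day 0 level in libraries labelled KO and WT. Per kilobase the H2A gene was the higher partner in 13 of 15 pairs, and the exceptions were H2bc4, at 5.73 CPM per kb beside 0.389 for H2ac6, and H2bc1 beside H2ac1. The allele-divided table gave the same order of changes in 11 of 11 pairs in each genotype. Both partners of several pairs share windows with other copies, as stated above.

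**Figure D3:**
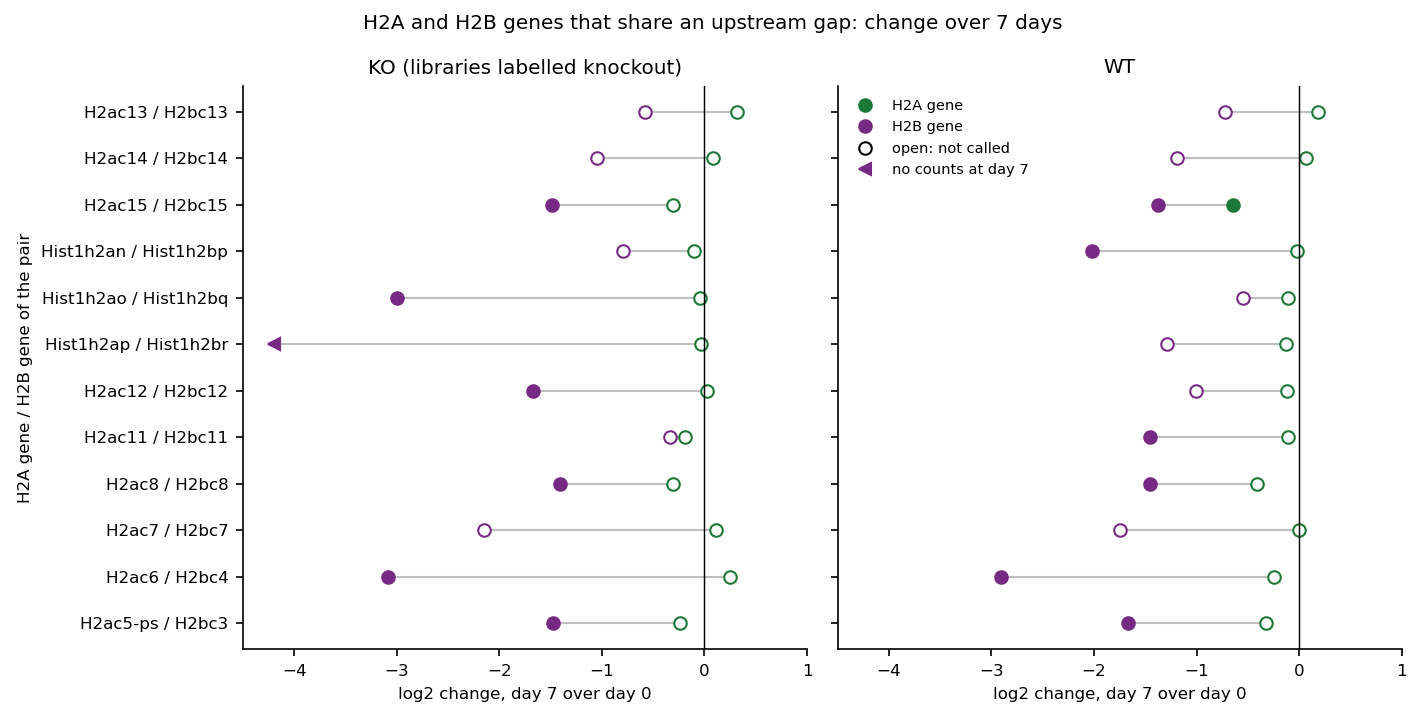
Log2 change over 7 days (x axis) of the H2A gene (green) and the H2B gene (purple) of each of the 12 tested head-to-head pairs (y axis), in libraries labelled KO on the left and in WT on the right. Points are filled where called, and the triangle is a gene with 0 counts at day 7. The H2B gene lies left of its H2A partner in all 12 pairs in both panels.

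The DNA between 2 such pairs is shown. In each the H2B gene was called lower in both genotypes and its H2A neighbour was tested and not called. The pair of H2bc3 and the pseudogene H2ac5-ps also met this and is not shown. The windows are the 250 bases before the RefSeq start (GRCm38.p6) of H2bc8, on the plus strand at chr13:23571150-23571399, and of H2ac6, on the minus strand at chr13:23683960-23684209, and each covers most or all of the gap to the partner gene. Capitals mark the CCAAT box (CCAAT or ATTGG), the octamer of histone H2B promoters (ATTTGCAT or ATGCAAAT) and TATA letters (TATAAA or TTTATA).
H2bc8: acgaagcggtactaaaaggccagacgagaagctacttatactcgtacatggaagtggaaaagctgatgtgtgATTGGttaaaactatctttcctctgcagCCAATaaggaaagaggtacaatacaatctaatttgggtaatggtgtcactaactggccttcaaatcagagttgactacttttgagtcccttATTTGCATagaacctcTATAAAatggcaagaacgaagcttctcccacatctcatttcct
H2ac6: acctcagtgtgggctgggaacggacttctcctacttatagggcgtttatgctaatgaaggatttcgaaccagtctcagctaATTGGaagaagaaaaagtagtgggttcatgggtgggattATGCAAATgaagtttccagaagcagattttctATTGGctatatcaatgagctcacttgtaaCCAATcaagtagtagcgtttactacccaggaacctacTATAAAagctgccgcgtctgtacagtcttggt
Of 27025 genes with a promoter window of this length, 1.81% held the octamer on either strand in any of their windows, 37.5% CCAAT and 14.3% TATAAA. The 69 histone genes with a window included 12 replication-dependent H2B genes, of which 6 held the octamer, 12 CCAAT and 6 TATAAA. Of 13 replication-dependent H2A genes 6 held the octamer and 13 CCAAT. Of the 5 H1, 10 H3 and 10 H4 replication-dependent genes with a window, 0 held the octamer. Paired genes share much of their windows, so these counts are not independent, and a match is a run of letters and not a shown binding site.

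Germ cell variants were at or near the limit of detection. H2bfm, an X-linked H2B variant at chrX:136927325-136928376, was listed at 0 in all 6 day 7 libraries, against 1.33, 0.984 and 1.45 CPM at day 0 in libraries labelled KO and 1.318, 0.589 and 1.67 CPM in WT. With a floor of 3 counts over the group, it was at least 42.5-fold lower at day 7 in libraries labelled KO and at least 50.1-fold lower in WT, and it was called in both. H2bfm and H2bc1 passed the filter on low counts only through day 0 libraries, so their calls are given as a description. H2bc1, which encodes the testis H2B, changed by -1.81 (adjusted p = 0.0233) in libraries labelled KO and -1.73 (adjusted p = 0.0221) in WT, calls lost in 4 of 17 alternative analyses in libraries labelled KO and in 5 of 18 in WT. The other 5 (H1f6, H1f7, H2ac1, H2al1k and H2al1m) did not pass the filter, with at most 0.439 CPM in any library. The 6 spermatogenic markers summed to at most 0.151 CPM in any library.

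Between genotypes, few differences passed. At day 0, 0 of 79 histone genes were called in libraries labelled KO against WT, beside 0.13% of all genes, with edgeR's quasi-likelihood test. There were 9 of 79 with an unadjusted p under 0.05, beside 2298 of all 19235 tested genes, and DESeq2 called 0. The smallest p values were those of Hist1h2bp (log2 -1.20, SE 0.32, adjusted p = 0.227), Macroh2a1 (log2 -0.21, SE 0.07, adjusted p = 0.277) and H3c13 (adjusted p = 0.336), which was listed at 0 in all 3 WT libraries. Macroh2a1 had 88.0, 94.8 and 94.3 CPM in libraries labelled KO, against 113, 102 and 106 CPM in WT, values that did not overlap.

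At day 7, 1 histone gene, H2aj, was called lower in libraries labelled KO than in WT, beside 0.0208% of all genes called lower. With the CPM values given above, which do not overlap between genotypes at day 7, its log2 difference was -2.55 (SE 0.27, adjusted p = 0.00794), and at day 0, where the libraries overlap, it was -0.17 (adjusted p = 0.861). The day 7 call is lost in the allele-divided table, as described next. All 11 replacement variants had a negative log2 difference, with a median of -0.168 beside -0.02 for all genes, but 10 of the 11 did not pass the test. With the allele-divided counts, 10 of the 11 were negative, with a median of -0.114, and H3f3b was at 0.07. The same sign held for 42 of the 58 tested replication-dependent genes, with a median of -0.286. It was not particular to day 7: at day 0 it held for 43 of the 58, with a median of -0.272, and for 7 of the 11 replacement variants. The share of all genes with a negative sign is not given here, so these counts of signs are a description. Hist1h2br, a replication-dependent H2B gene, was listed at 0 in all 3 libraries labelled KO, against 1.39, 1.01 and 0.852 CPM in WT. On the allele-divided table it was also listed at 0 in all 3 libraries labelled KO, against 0.242, 1.03 and 0 CPM in WT, so that 1 WT library was at 0 as well. It did not pass in edgeR (adjusted p = 0.345) but was called by DESeq2, and 88.7% of its 50-base windows occur in other genes. Macroh2a2 had 145, 147 and 148 CPM in libraries labelled KO, against 191, 186 and 181 CPM in WT, without overlap and without passing the test (log2 -0.34, SE 0.11, adjusted p = 0.473). At day 7, 9 of 79 histone genes had an unadjusted p under 0.05, beside 1573 of all 19235 tested genes.

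The interaction, the log2 change over 7 days in libraries labelled KO minus that in WT, was called for 0 of 79 histone genes in edgeR, beside 0.026% of all genes. There were 8 of 79 with an unadjusted p under 0.05, beside 1319 of all 19235 tested genes. DESeq2 called 2, H2aj and Hist1h2br. The smallest p values in edgeR were those of H2aj (log2 -2.39, SE 0.37, adjusted p = 0.0751), H1f0 (log2 -0.37, SE 0.11, adjusted p = 0.495) and Hist1h2br (adjusted p = 0.565). The comparisons of day and of genotype share libraries, so they are not independent of each other.

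The H2aj difference depended on which deposited table was read. Besides the all-reads table, the authors deposited counts of the same libraries divided into genome 1, genome 2 and unassigned reads, which were summed. In libraries labelled KO at day 7 the all-reads table held 267, 322 and 368 H2aj counts, whereas the 3 parts of the divided table summed to 1321, 1420 and 1143. In WT at day 7 the all-reads table held 2878, 3651 and 1376 counts and in the divided table they summed to 1822, 2416 and 1366. The reads assigned to genome 2 alone numbered 243, 560 and 238 in libraries labelled KO, so in replicate 2 they exceeded the all-reads value.

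On the divided table H2aj had 35.7, 49.9 and 38.2 CPM at day 7 in libraries labelled KO, against 44.1, 37.2 and 54.8 CPM in WT, and these overlapped. The log2 difference was -0.13 (adjusted p = 0.965). The change over 7 days was still called there, at -1.11 (adjusted p = 0.00264) in libraries labelled KO and -0.94 (adjusted p = 0.00698) in WT. The tables also differed for H1f10 in the day 0 library labelled KO replicate 1, listed at 0 in the all-reads table but with 4177 counts in the divided one. Of genes averaging at least 200 counts, 17.4% differed 2-fold or more between the tables in some library, and of 25 such histone genes 3 did (H1f10, H2aj and H2bc4). Of the histone genes, 77 were tested on the divided counts. There 0 were called between genotypes at day 7, beside 0.0318% of all genes, and 0 at day 0, beside 0.0847%. Over 7 days 6 were called higher and 20 lower in libraries labelled KO, beside 31.5% and 31.9% of all genes, and 6 higher and 19 lower in WT, beside 33.1% and 32.2%. In each genotype 24 of these were also called on the all-reads table.

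**Figure D4:**
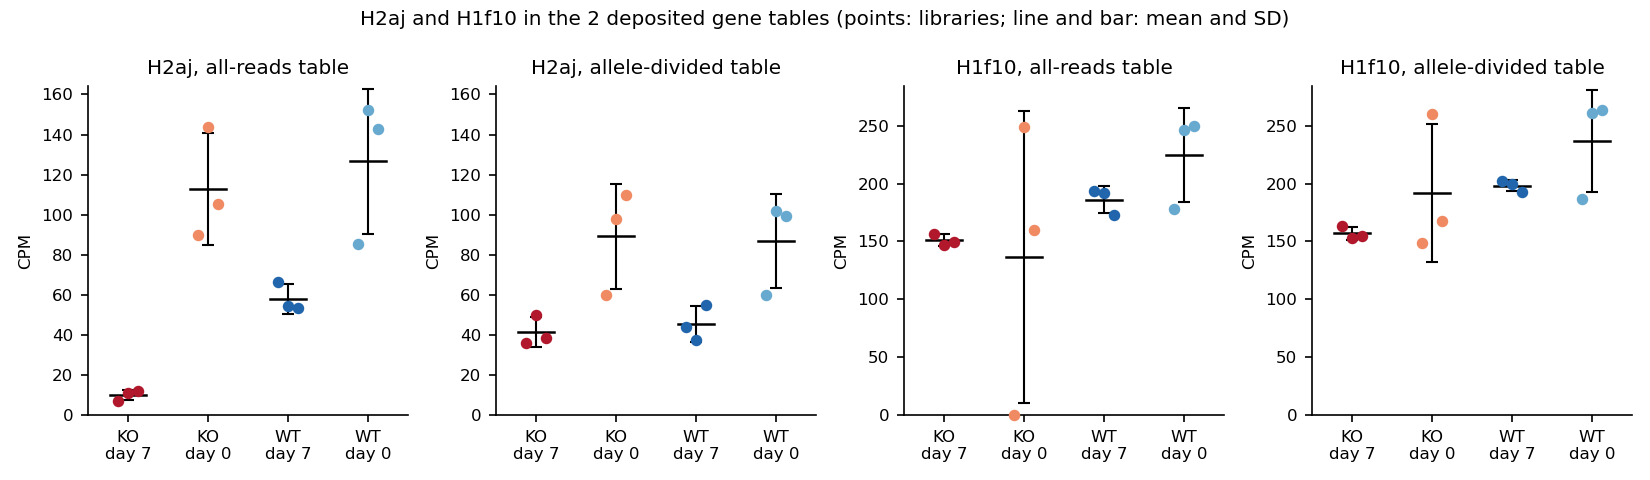
CPM (y axis) of H2aj and H1f10 by group (x axis) in the all-reads table and in the allele-divided table. Points are libraries, and the line and bar are the mean and SD. For H2aj the day 7 libraries labelled KO lie apart from WT at day 7 in the all-reads table and overlap them in the divided table, and H1f10 has 1 day 0 library labelled KO at 0 in the all-reads table.

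The divided counts also gave the share of each parental genome. The column names do not say which strain is genome 1. The test took genes whose reads could be assigned to a genome at least 20 times in each of the 12 libraries, 9344 in all, of which 17 were histone genes. Among them 0 share changes over 7 days were called (edgeR, library as a block), beside 2.99% of genes in libraries labelled KO and 3.67% in WT. Macroh2a1 came nearest: reads of genome 2 made up 49.5%, 49.8% and 48.5% at day 7 against 29.7%, 38.7% and 30.6% at day 0 in libraries labelled KO. In WT they made up 44.8%, 47.6% and 44.8% at day 7 against 35.0%, 35.8% and 40.7% at day 0. The days did not overlap in either genotype, but the change in log2 ratio of genome 2 over genome 1 did not pass, at 0.99 (adjusted p = 0.0515) in libraries labelled KO and 0.51 (adjusted p = 0.402) in WT. Shares of genome 2 differed from gene to gene. H2ax had 67.4% ± 1.35 genome 2 at day 7 against 70.3% ± 2.22 at day 0 in libraries labelled KO, and 67.9% ± 1.28 against 71.6% ± 1.24 in WT (SD, n = 3). Cenpa had 8.75% ± 1.77 at day 7 against 10.5% ± 3.33 at day 0 in libraries labelled KO, and 10.5% ± 0.440 against 13.03% ± 2.47 in WT. H3f3b had 49.5% ± 1.099 against 50.6% ± 2.25 in libraries labelled KO, and 50.9% ± 3.57 against 45.6% ± 4.27 in WT. H1f0, H2az1 and H2az2 had 0 reads of genome 2 in every library. Shares at or near 0 or 100% depend on which variants could be read, which the sources used here do not give, so they are not shown to be expression from a single allele.

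Transcript make-up was tested in Macroh2a1 only, and its change had p under 0.05 (exact permutation test) only with both genotypes pooled. Its annotated transcript H2afy-201 took 72.1%, 68.5% and 72.3% of the gene's transcript counts at day 7 in libraries labelled KO, against 75.2%, 90.3% and 87.7% at day 0. In WT it took 77.9%, 73.1% and 68.3% at day 7, against 82.6%, 78.8% and 82.1% at day 0. Within each genotype every day 7 value was below every day 0 value, and the exact permutation test gave p = 0.1, the smallest that 3 against 3 allows. Over both genotypes the share was 72.0% ± 3.51 at day 7 against 82.8% ± 5.55 at day 0 (SD, n = 6 each), a difference of -10.7 percentage points (exact two-sided permutation p = 0.00433). As a share of the 2 most abundant transcripts the difference was -7.64 points over both genotypes (exact p = 0.0173), -10.5 points in libraries labelled KO (exact p = 0.1) and -4.80 points in WT (exact p = 0.2), where the days overlapped. The second most abundant transcript, H2afy-204 (16.2% over all libraries), is annotated as a processed transcript and not as protein-coding. The protein forms macroH2A1.1 and macroH2A1.2 differ by a pair of alternative exons, and the transcripts were not assigned to them here. A change of protein form is thus not shown. Transcript shares of Cenpa shifted with day as well, but this was not tested. Its transcript Cenpa-202 is annotated as subject to nonsense-mediated decay. It took 50.7%, 46.5% and 43.8% at day 7 in libraries labelled KO, against 34.1%, 38.2% and 28.2% at day 0. In WT it took 46.3%, 47.6% and 50.6% at day 7, against 26.65%, 26.1% and 29.9% at day 0. H2az1 also had 2 main annotated transcripts, whose shares differed between libraries of the same group. H2afz-207 took 43.7% in replicate 2 of the day 7 libraries labelled KO, 43.0% in replicate 3 of WT at day 7 and 49.6% in replicate 1 of WT at day 0. It took at most 5.90% in the others.

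**Figure D5:**
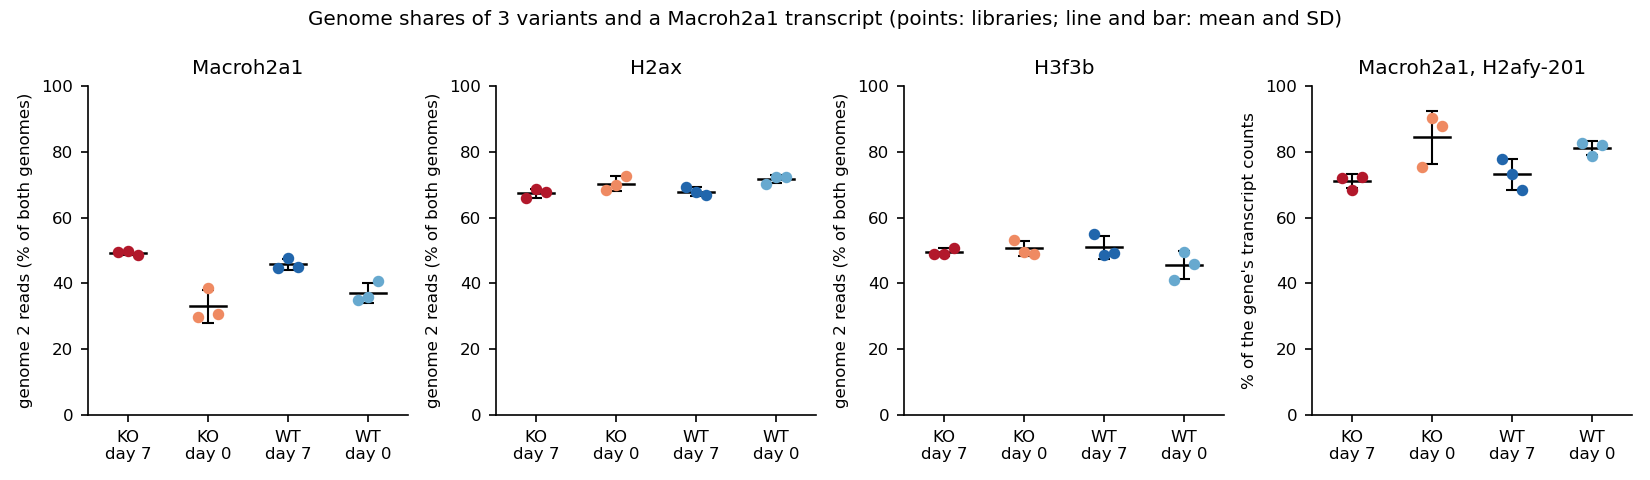
Share of allele-resolved reads from genome 2 for Macroh2a1, H2ax and H3f3b, and the share of Macroh2a1 transcript counts on H2afy-201 (y axes, percent), by group (x axis). Points are libraries, and the line and bar are the mean and SD. The Macroh2a1 genome 2 share is higher and the H2afy-201 share lower at day 7 than at day 0 in both genotypes.

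Genes that process, load or accompany histones changed in both directions over 7 days, and 0 of them were called between genotypes on either day. Of 28 tested genes of histone mRNA processing, 9 were higher and 9 lower in libraries labelled KO and 9 and 8 in WT. The uridylyltransferases Tut4 and Tut7, which add uridines to RNA tails, rose in both genotypes, with log2 changes in libraries labelled KO and in WT of 2.18 and 2.32 for Tut4 and 1.19 and 1.68 for Tut7, as did Npat, the activator of histone gene transcription (0.75 and 1.01). Zfp473, a zinc finger protein of the U7 particle (-1.79 and -1.82), Dbr1 (-0.84 and -0.72) and Gemin5 (-0.75 and -0.74) fell in both.

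Of 43 tested histone chaperones and loading factors, 11 were higher and 20 lower in libraries labelled KO, and 14 and 20 in WT. The largest called rises were those of Spty2d1 (1.64 and 1.43), the HIRA complex subunit Ubn1 (1.01 and 1.302) and the chaperone Dnajc9 (0.70 and 0.95), in libraries labelled KO and in WT. The largest called falls were those of Nucks1 (-1.54 and -1.53), the histone acetyltransferase Hat1 (-1.34 and -1.16) and the helicase subunit Mcm2 (-0.95 and -0.94). Of 29 genes of DNA synthesis, 6 were higher and 15 lower in libraries labelled KO, and 8 and 15 in WT. Cyclin E genes went opposite ways, with Ccne2 at 1.17 and 1.40 and Ccne1 at -2.79 and -2.74, and Mki67 (0.84 and 1.02) and Rrm1 (0.65 and 0.85) rose while the nucleoside transporter Slc29a1 (-2.80 and -3.24) and E2f2 (-3.06 and -2.55) fell. These counts stand beside the 31.1% to 32.9% of all genes called in each direction.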

How the data were processed

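PolyA RNA was sequenced from 12 libraries, grouped by title into 4 groups of 3. The authors deposited expected counts per gene and per transcript, from StringTie 1.3.3 after Trimmomatic 0.36 and HISAT2 2.1.0 on mm10/GRCm38, per the submitters' processing notes; all values are whole numbers, so no rounding was needed. A second set of tables holds expected counts divided by parental genome. Histone genes and gene lists were chosen with earlier results of these data known.

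Gene counts were analysed with edgeR 4.0.16 in R 4.3.3. After filterByExpr by group and TMM scaling, 1 quasi-likelihood model was fitted to all 12 libraries with 1 coefficient per group, and p-values were adjusted over 19235 genes by Benjamini-Hochberg, with calls at 0.05. SE is the log2 change divided by the square root of F. CPM uses the TMM library size. The transcript share of Macroh2a1 was tested by an exact permutation test (scipy 1.17.1), and allele counts by edgeR with library as a block. Sums over genes were planned with an exact test but are given without one, since the genes were chosen with results known. The fit was tested on simulated data.

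Named are the genes called between genotypes or in the interaction, the 3 smallest p of each such comparison, every replacement variant, the 4 highest genes per kilobase and the 2 largest rises and falls called in both genotypes of each replication-dependent family, and the 3 largest changes each way of each companion list. H2ac8, H2ac6, H2bfm and H2bc1 were named after their values were seen. Alternatives were size factors by relative log expression, no count filter, a replicate block, 6-library fits, DESeq2 1.42.0, each library left out, and, added after the data were seen, the allele-divided table, the stem-loop sum without H2ax and the H2B pair sum without H2bc4. Counts of 25190483 to 69079368 per library set the precision, which for genes near 1 CPM is low.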

Additional observations from a re-analysis of the deposited data

How the results depend on the processing

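Of 57 calls of single histone genes, 33 held in every alternative run and 24 were lost in at least 1. Of 1021 alternative values 886 kept the call, 135 lost it and 0 changed sign. All alternatives but the allele-divided table use the same all-reads counts, and some leave out a library outside the groups compared. These tallies are therefore not independent checks. For libraries labelled KO against WT at day 7, DESeq2 called 2 genes and the allele-divided counts gave 0, against 1 in the analysis reported, and leaving out each library gave 1 to 2. The H2aj call held in 17 of 18 alternatives and was lost with the allele-divided table. Those 17 start from the same all-reads H2aj counts, so they cannot decide between the 2 tables. Hist1h2br was the added call of DESeq2. For the interaction, no count filter called 1, DESeq2 2 and leaving out each library 0 to 1. The change over 7 days in WT gave 18 to 29 calls with each library left out, the lowest without replicate 2 at day 0, when 12 genes were lower, against 21. In libraries labelled KO it gave 22 to 29, and the 6-library fit called 12 lower, against 21. The log2 ratio of the stem-loop sum without H2ax was -0.072 in libraries labelled KO and -0.12 in WT. The allelic test in libraries labelled KO called 1 gene, Macroh2a1, with at least 50 reads, and 0 to 1 with each library left out. The cause of these differences was not tested.

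Over all tested genes, the deviations of same-numbered libraries had correlations of -0.084 to 0.061, so the numbers are not taken to pair the samples, although the H2A sum had the same order of replicates in both genotypes at day 0. With the replicate block, 26 genes were called over 7 days in each genotype (6 higher and 20 lower), 1 at day 7 between genotypes and 0 at day 0 or in the interaction. Depth limits the H2B, H3 and H4 genes, most of which lie near 1 CPM.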

Other observations

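Some loci annotated as copies of variant genes changed as well, and they are named here after their values were seen. H3f3a-ps2, a processed pseudogene of H3f3a, had 2.98, 3.14 and 2.71 CPM at day 7 against 2.15, 1.40 and 1.64 CPM at day 0 in libraries labelled KO, and 3.17, 1.75 and 2.52 CPM at day 7 against 1.68, 1.65 and 1.39 CPM at day 0 in WT libraries (log2 0.77, SE 0.27, adjusted p = 0.0253 in libraries labelled KO, and 0.65, SE 0.27, adjusted p = 0.0494 in WT). These calls were lost in 5 of 18 alternative analyses in libraries labelled KO and in 15 of 18 in WT. Macroh2a3, a processed pseudogene, had 1.503, 1.84 and 2.48 CPM at day 7 against 0.839, 0.330 and 0.521 CPM at day 0 in WT libraries and was called higher there (log2 1.80, SE 0.52, adjusted p = 0.0101). H3f3aos had 0.545, 0.473 and 0.484 CPM at day 7 against 0.0682, 0.151 and 0.120 CPM at day 0 in libraries labelled KO and was called higher there (log2 2.11, SE 0.67, adjusted p = 0.017). It passed the filter on low counts only through day 7 libraries, so this call is given as a description. Of the 50-base windows of H3f3a-ps2, 82.0% occur in other genes, so its counts cannot be told from theirs.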
